A study of Mus musculus with 12 samples.

Results

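The 6 rhabdoid tumors with the highest RNA level of Mki67, the gene of the proliferation marker Ki-67, were compared with the 6 tumors with the lowest level, in a series of 12. The tumors had arisen in P0-CreC;Smarcb1 flox/flox mice on the FVB/N background, in which the Cre recombinase is driven by a P0 promoter active in neural crest cells and in the Schwann cell lineage, and Smarcb1, a core subunit of the SWI/SNF chromatin remodelling complex, is deleted in the cells that express it. All 12 samples were untreated, dissected and frozen tumors of this genotype, so both groups shared the Smarcb1 deletion and the series held no normal tissue. The age and sex of each animal are not given in the sources used here. The labels placed 4 tumors behind the eye (Retro-orbital), 3 in the cheek (Cheek), 3 in the meninges (Meninges) and 1 each on a vestibular and a trigeminal nerve (Vestibular N, Trigeminal N).

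Ki-67 is a nuclear protein that coats mitotic chromosomes. Its messenger RNA builds up from S phase to mitosis under the control of cell cycle transcription factors and drops when cells leave the cycle, which is why the level of Mki67 is widely used to grade how many cells of a tumor divide. Rhabdoid tumors are fast-growing and poorly differentiated, and they also hold fibroblasts, vessels, leukocytes and remains of the tissue they invade. In RNA of a whole tumor piece, fewer cells of a type and less RNA per cell cannot be told apart.

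The groups were chosen by the Mki67 RPKM (reads on a gene, scaled to its length and to the depth of the library) of each tumor, so Mki67 itself is given only as a description. The Mki67-high tumors were Meninges 2 (63.1 RPKM), Trigeminal N 1 (63.0), Vestibular N 1 (61.6), Meninges 1 (61.5), Meninges 3 (55.2) and Retro-orbital 4 (49.8). The Mki67-low tumors were Cheek 1 (48.6), Cheek 3 (42.0), Retro-orbital 1 (35.9), Cheek 2 (34.4), Retro-orbital 2 (30.4) and Retro-orbital 3 (18.6). The split fell in a narrow gap, with 49.8 RPKM just inside the Mki67-high group and 48.6 RPKM just outside it. The location was almost the same split: the 3 meningeal and both single-nerve tumors were Mki67-high, the 3 cheek tumors were Mki67-low, and only the retro-orbital tumors stood on both sides, 1 high and 3 low. Location and Mki67 level therefore cannot be told apart outside the retro-orbital tumors.

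**Figure D1:**
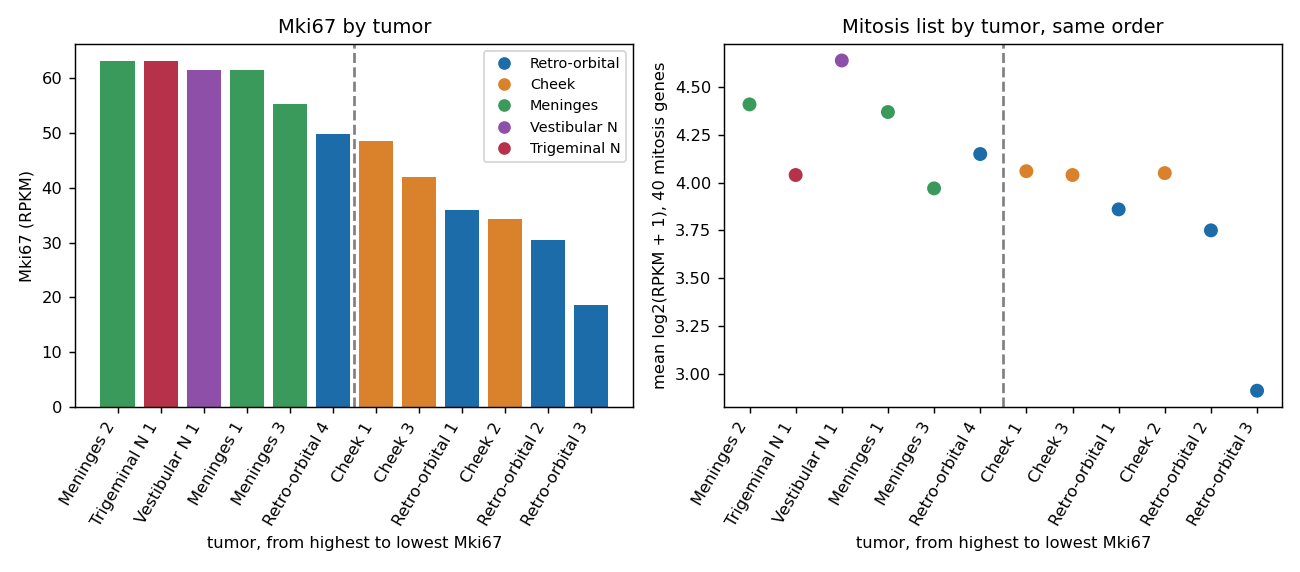
Left, Mki67 in RPKM for each tumor as a bar coloured by location, ordered from the highest to the lowest, with a dashed line between the groups. Right, the mean log2(RPKM + 1) of the 40 genes of the mitosis list in the same order: Retro-orbital 3, the tumor lowest in Mki67 at 18.6 RPKM, was also the lowest here at 2.91, while Trigeminal N 1 and Meninges 3 stood among the Mki67-low tumors.

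In 3 pairs the tumors shared the first part of their identifier and may come from one animal, which the labels do not say: Cheek 1 with Meninges 1, Cheek 2 with Cheek 3, and Retro-orbital 3 with Trigeminal N 1. No label says that the other tumors came from separate animals, so the p-values measure only the spread between these samples. The fragments behind the values ranged from 17792000 to 41221000 in the Mki67-high and from 13204000 to 57128000 in the Mki67-low tumors, and from 13403 to 14528 and from 12575 to 14178 genes reached 1 RPKM. Smarcb1 was read at 1.70 to 6.31 RPKM (median 4.94) in the Mki67-high and 2.90 to 4.72 RPKM (median 4.13) in the Mki67-low tumors. The value spans the whole gene and so does not check the deleted part. Ezh2, the histone methyltransferase subunit of Polycomb complex 2, stood at 7.77, 17.1 and 25.6 RPKM (lowest, median, highest) against 5.22, 13.7 and 16.4 RPKM, a difference of 0.44 ± 0.29 (SE) in mean log2(RPKM + 1) that did not pass the test (limma, adjusted p = 0.45).

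The ranking by Mki67 was checked against other genes of dividing cells. Ranked by Top2a, the topoisomerase that untangles replicated DNA, 10 of 12 tumors stayed in their group; ranked by the mean of the mitosis list, 8 of 12 did. Trigeminal N 1, 2nd by Mki67, was 8th by either, and Meninges 3, 5th by Mki67, was 9th by the mitosis list, while Cheek 1 was 5th by both. The mean log2(RPKM + 1) of the mitosis list was 3.97 to 4.64 (median 4.26) in the Mki67-high and 2.91 to 4.06 (median 3.95) in the Mki67-low tumors. The label therefore holds for Mki67 itself and only in part for mitotic genes as a group, whose levels overlapped between the groups.

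Most of the mitosis promoters examined held a shared element, which describes the list of genes and does not test the split. Many genes expressed late in the cell cycle hold a cell cycle genes homology region near their start site, whose core is written TTTGAA. These letters, on either strand, were found in 25 of the 34 mitosis genes with a promoter window (73.5%; 40 genes on the list), against 1542 of 10844 genes tested with a window (14.2%), 5466 of all 27025 genes with one (20.2%), 3 of 26 genes of S phase and DNA replication (11.5%) and 6 of 17 genes of fibroblasts and matrix (35.3%). Windows run from 250 bases before to 50 bases after a gene's start (RefSeq, GRCm38.p6), and a match is a description of the letters, not a binding site. Of the 6 mitosis genes whose values did not overlap between the groups, 5 had a window and all 5 held the motif. They were picked by these same values from a list where 73.5% held it, so this too is only a description. The windows of 3 of these genes are shown 5′ to 3′ with the motif, or its reverse complement TTCAAA, in capitals, since these genes were the mitotic ones that followed the split.
Cenpf (chr1:189688037-189688336, minus strand): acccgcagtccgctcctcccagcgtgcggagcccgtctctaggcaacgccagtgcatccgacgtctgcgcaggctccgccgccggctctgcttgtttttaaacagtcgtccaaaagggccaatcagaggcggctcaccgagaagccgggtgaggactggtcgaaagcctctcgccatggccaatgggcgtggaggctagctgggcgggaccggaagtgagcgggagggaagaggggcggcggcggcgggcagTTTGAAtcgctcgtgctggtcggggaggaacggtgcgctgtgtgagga
Kif23 (chr9:61946750-61947049, minus strand): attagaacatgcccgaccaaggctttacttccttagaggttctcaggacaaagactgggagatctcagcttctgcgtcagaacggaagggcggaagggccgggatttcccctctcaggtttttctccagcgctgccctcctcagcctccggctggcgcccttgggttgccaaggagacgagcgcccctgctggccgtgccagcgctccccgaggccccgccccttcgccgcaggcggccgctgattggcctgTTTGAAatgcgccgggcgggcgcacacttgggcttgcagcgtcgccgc
Ndc80 (chr17:71526808-71527107, minus strand): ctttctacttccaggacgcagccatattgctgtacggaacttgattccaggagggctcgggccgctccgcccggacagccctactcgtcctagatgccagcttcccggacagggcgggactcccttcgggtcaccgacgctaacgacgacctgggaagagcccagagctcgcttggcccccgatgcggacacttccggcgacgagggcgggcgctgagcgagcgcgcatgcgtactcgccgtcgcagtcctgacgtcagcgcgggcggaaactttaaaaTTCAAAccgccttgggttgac
The motif lies just past the start site in Cenpf and Kif23, and nearer the window's end in Ndc80.

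The genes of the cell cycle follow as a description of the split, since they share their control with Mki67. Differences are the mean log2(RPKM + 1) of the Mki67-high minus that of the Mki67-low tumors, and all 15042 genes tested had a median difference of 0.14. Of the 40 mitosis genes 39 had a positive difference, with a median of 0.46, and 6 did not overlap between the groups, where 0.804% of all genes tested did not overlap in this direction and 0.319% in the other. Those 6 were named after their values were seen: Cenpf, a kinetochore protein, Foxm1, the transcription factor of the G2 and M phase program, the kinesins Kif23 and Kif15, and the kinetochore proteins Casc5 and Ndc80. Cenpf stood at 16.4, 20.2 and 22.6 RPKM (lowest, median, highest) in the Mki67-high and 6.48, 11.2 and 14.3 RPKM in the Mki67-low tumors. Foxm1 stood at 8.08, 11.2 and 14.1 against 4.97, 5.75 and 6.97 RPKM. In both, every Mki67-high tumor lay above every Mki67-low tumor, with differences of 0.85 and 0.77. Top2a had the largest difference of the list, 0.98, but its values overlapped (48.6 to 152 against 20.9 to 87.4 RPKM).

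All 32 genes of S phase and DNA replication had a positive difference, with a median of 0.45 and no gene free of overlap. Uhrf1, which carries DNA methylation to the new strand, led them at 0.92 (29.2 to 68.5 against 9.12 to 35.3 RPKM), followed by the ligase Lig1 (0.85), the origin licensing factor Cdc6 (0.77) and the thymidylate synthase Tyms (0.73). Of 58 replication-dependent histone genes tested (68 in the files, 7 of them at 0 in every tumor), 56 had a positive difference, with a median of 0.64, and 2 did not overlap. Hist3h2ba (1.74), Hist1h3d (1.23), Hist3h2a (1.14) and Hist1h2bn (1.13) differed most. Histone genes are near-identical copies, and the paper kept only reads that mapped uniquely, so a single gene's value is uncertain. The libraries were made after removal of ribosomal RNA and not by their poly(A) tails, which these messages lack.

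Chromatin genes of dividing cells had a median difference of 0.37, and 2 of 16 did not overlap, the nuclear lamina gene Lmnb1 (0.95; 22.6 to 56.7 against 10.6 to 20.4 RPKM) and the histone methyltransferase Suv39h2 (0.57). Hmgb2 (0.88), H2afx (0.71) and the DNA methyltransferase Dnmt1 (0.60) overlapped. Genes of cycle entry and exit had a median of 0.24, with 19 of 24 positive. Among them were the activating Ccne1 (0.81), the atypical E2F E2f8 (0.91) and the inhibitors Cdkn1c (0.96) and Cdkn2c (0.78), and none was free of overlap. The growth genes of Myc and the nucleolus had a median of -0.03 over 14 genes, 10 of them negative, while their slopes on log2 Mki67 over the 12 tumors had a median of 0.24 and 11 of 14 were positive. Myc stood at 13.3 to 37.6 RPKM (median 23.3) in the Mki67-high and 17.9 to 59.2 RPKM (median 29.9) in the Mki67-low tumors, a difference of -0.46 that did not pass the test (limma, adjusted p = 0.48), and Mycl (0.75), Cad (0.31) and Ncl (-0.29) did not either.

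Across all other genes, 11 of 15042 passed an adjusted p of 0.05 (limma on log2(RPKM + 1), Benjamini-Hochberg), 5 higher (0.0332% of those tested) and 6 lower (0.0399%) in the Mki67-high tumors. At an unadjusted p under 0.05 stood 2605 genes, 1948 of them higher, and with each tumor centred on its median 2207, 986 of them higher (44.7% against 74.8%), so the balance of directions over all genes rested on the scaling, which moved the median difference from 0.14 to -0.02. The 11 genes kept their direction under both scalings. None of the 11 belonged to a proliferation list, and only 1, Ptgds, to any list. With the identifier's first part as a random block, which called 84 genes, Cenpf, Foxm1 and Kif23 of the mitosis list, 3 histone genes and the neuronal Syp passed as well.

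The 6 genes that fell in the Mki67-high tumors were a scavenger receptor, an annexin, an RNA-binding protein, an adhesion molecule, a secreted protease and a ubiquitin-domain protein. Colec12 (chr18:9707648-9877995), a collectin scavenger receptor of vascular and stromal cells, had the smallest p. It stood at 7.23, 9.49 and 12.3 RPKM (lowest, median, highest) in the Mki67-high and 20.9, 44.0 and 51.9 RPKM in the Mki67-low tumors, a 4.63-fold ratio of medians and a difference of -1.97 ± 0.21 (SE; limma, adjusted p = 0.0066). The groups were well apart, and the Mki67-low tumor nearest to the others was Retro-orbital 3 at 20.9 RPKM.

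Anxa1 (chr19:20373434-20390671), annexin A1, a phospholipid-binding protein that dampens inflammation, was the most abundant of the 6. It stood at 35.8, 86.6 and 107 RPKM in the Mki67-high and 155, 818 and 1414 RPKM in the Mki67-low tumors, a 9.44-fold ratio of medians and a difference of -3.16 ± 0.48 (limma, adjusted p = 0.036). Cheek 1, the tumor nearest the split, was the lowest of its group at 155 RPKM, far from the 530 to 1414 RPKM of the other Mki67-low tumors but above every Mki67-high tumor.

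Igf2bp2 (chr16:22059009-22163299), which binds messenger RNAs including that of Igf2, was at 0.605, 1.25 and 2.56 RPKM in the Mki67-high and 4.45, 13.4 and 17.5 RPKM in the Mki67-low tumors, a 10.8-fold ratio of medians and a difference of -2.44 ± 0.33 (limma, adjusted p = 0.027). The levels stepped with location as well: 17.2 to 17.5 RPKM in the 3 cheek tumors, 4.45 to 9.71 RPKM in the 3 Mki67-low retro-orbital tumors, 2.56 RPKM in Retro-orbital 4 and 0.605 to 1.46 RPKM in the meninges. Pvrl3 (Nectin3; chr16:46387665-46498535), a cell adhesion molecule, was at 0.936, 1.80 and 4.74 RPKM against 6.03, 11.8 and 14.5 RPKM, a difference of -1.90 ± 0.29 (limma, adjusted p = 0.036). Its groups did not overlap, and Vestibular N 1 was the Mki67-high tumor nearest to the others at 4.74 RPKM.

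Prss23 (chr7:89507783-89527187), a secreted serine protease, was at 4.10, 7.16 and 12.8 RPKM in the Mki67-high and 15.7, 23.8 and 38.6 RPKM in the Mki67-low tumors, a difference of -1.64 ± 0.26 (limma, adjusted p = 0.042). Among the 11 genes it had the smallest p when the split was replaced by a slope on log2 Mki67 over all 12 tumors (a slope of -1.65, adjusted p = 0.058), which missed the threshold. The highest value was that of Retro-orbital 3, the tumor with the least Mki67. Ubtd1 (chr19:41981763-42034650), a ubiquitin-domain protein, was at 6.20, 8.68 and 10.0 RPKM against 16.4, 23.1 and 32.9 RPKM, a difference of -1.34 ± 0.19 (limma, adjusted p = 0.036), also free of overlap.

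The 5 genes that rose in the Mki67-high tumors were led by Ptgds (chr2:25466709-25470110), the prostaglandin D2 synthase secreted by arachnoid cells, choroid plexus and some glia. It stood at 11.0, 28.5 and 51.5 RPKM in the Mki67-high and 0.088, 1.76 and 5.94 RPKM in the Mki67-low tumors, a 16.2-fold ratio of medians and a difference of 3.43 ± 0.46 (limma, adjusted p = 0.027). The highest level was not in the meninges (27.9 to 31.3 RPKM) but in Retro-orbital 4, at 51.5 RPKM. Of the 8 markers of arachnoid, choroid plexus and ependyma 7 were tested, all 7 had a positive difference with a median of 0.74, and only Ptgds passed. Their summed level was 26.6 to 141 RPKM in the Mki67-high and 4.42 to 67.1 RPKM in the Mki67-low tumors, and their part in the Ptgds result was not tested. In meningeal tumors of this model the paper saw staining for the protein in arachnoid cells but not in the tumor. Which cells held the RNA was not tested here. Enpp2 (a difference of 1.27) and Ttr (1.55) did not pass, Ttr being at 96.1 RPKM in Vestibular N 1 and at 2.74 RPKM or less in the others.

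Cep44 (chr8:56531516-56550876), a centriole protein, was at 20.9, 56.8 and 83.1 RPKM in the Mki67-high and 6.12, 8.83 and 16.9 RPKM in the Mki67-low tumors, a 6.43-fold ratio of medians and a difference of 2.26 ± 0.33 (limma, adjusted p = 0.036). Its groups did not overlap, with Vestibular N 1 the lowest of the Mki67-high tumors. Tfb1m (chr17:3519250-3557796), which methylates the ribosomal RNA of mitochondria, was at 10.4, 14.4 and 22.5 against 3.69, 4.21 and 7.83 RPKM, a difference of 1.47 ± 0.23 (limma, adjusted p = 0.039). The 3 meningeal tumors were the highest at 17.3 to 22.5 RPKM. The gene overlaps Tiam2 and Cldn20 in RefSeq. Tiam2 was at 0.475 to 3.53 and 0.541 to 5.75 RPKM in the groups and Cldn20 at 0.859 to 3.92 and 0.115 to 1.34 RPKM.

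Icosl (chr10:78069368-78079525), the ligand of the T cell costimulator ICOS, was at 6.64, 9.70 and 12.3 RPKM in the Mki67-high and 1.77, 2.74 and 4.66 RPKM in the Mki67-low tumors, a difference of 1.43 ± 0.22 (limma, adjusted p = 0.036). Ephb3 (chr16:21204620-21223309), a receptor tyrosine kinase for ephrin-B ligands, was at 17.6, 27.0 and 34.5 against 5.56, 8.94 and 14.0 RPKM, a difference of 1.39 ± 0.21 (limma, adjusted p = 0.036). Neither overlapped between the groups, and the tumors on either side of the split, Retro-orbital 4 and Cheek 1, came closest for Ephb3. Ephb3, which rose, and Igf2bp2, which fell, lie 836 kb apart on chromosome 16 (GRCm38).

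**Figure D2:**
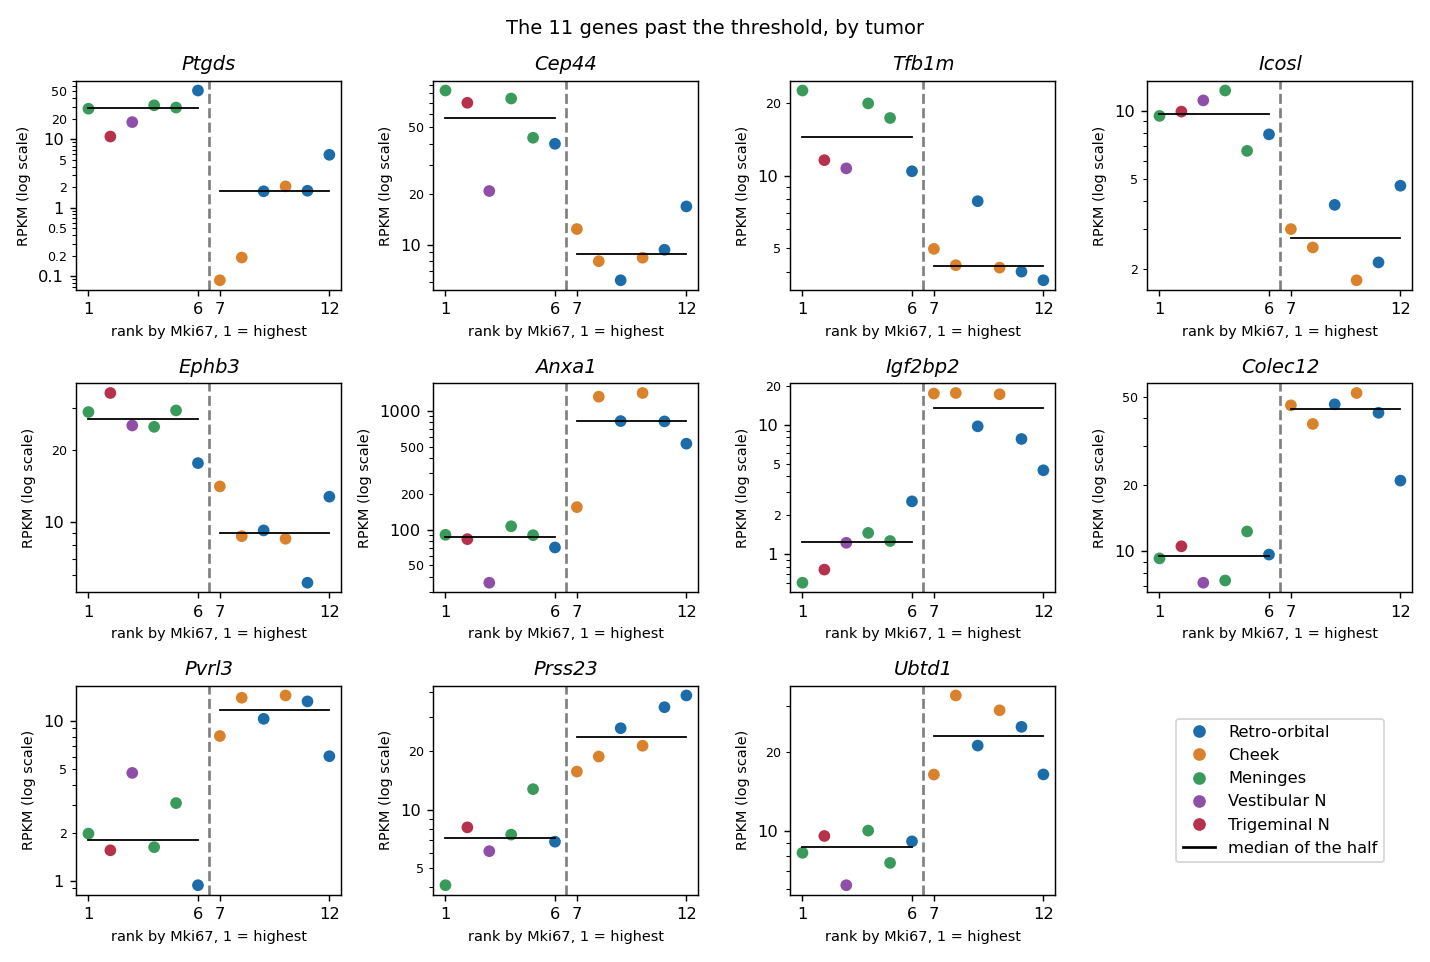
RPKM on a log scale of the 11 genes past the threshold against the tumor's rank by Mki67 (1 = highest), coloured by location, with a dashed line between the groups and a black line at each group's median. In each panel the 6 points left of the line are separate from the 6 to its right, and the single blue point left of the line is Retro-orbital 4.

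The retro-orbital tumors were the only location on both sides of the split, so they were set side by side. For genes whose groups do not overlap, Retro-orbital 4 must lie outside the range of Retro-orbital 1 to 3, so only the sizes are of use here. Anxa1 was at 70.9 RPKM in Retro-orbital 4 against 530 to 820 RPKM in the other 3, Prss23 at 6.86 against 26.2 to 38.6 RPKM, and Pvrl3 at 0.936 against 6.03 to 13.3 RPKM. Ptgds was at 51.5 against 1.74 to 5.94 RPKM and Cep44 at 39.9 against 6.12 to 16.9 RPKM. The single tumor gives no spread of its own. In a fit with location as a covariate, which rests on this contrast of 1 tumor with 3, no gene passed (limma, lowest adjusted p = 0.27, 821 genes at an unadjusted p under 0.05).

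Genes of fibroblasts and matrix, listed here as stroma, had lower values in Mki67-high tumors on average, but none of the 28 passed the test. Of these 23 had a negative difference, with a median of -0.54 beside 0.14 for all genes tested. The summed level was 2586 to 5432 RPKM (median 4207) in the Mki67-high and 4055 to 8251 RPKM (median 7238) in the Mki67-low tumors. In this sum, which the most abundant genes carry, Retro-orbital 3 was at 4055 RPKM and the other 5 Mki67-low tumors at 6658 RPKM or more. By the mean log2(RPKM + 1) of the list Retro-orbital 3 stood at 5.87, and the groups overlapped through Retro-orbital 4 (5.75) and Cheek 1 (5.61). In tumors of this model the paper describes a mesenchymal pattern, with a lower percentage of Ki-67-positive cells than in the neuroectodermal pattern. The histology of each sequenced tumor is not given in the sources used here. Whether tumor cells or stromal cells held the matrix RNA was not tested.

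The largest differences were those of fibulin 2 (Fbln2, -2.56 ± 0.85), periostin (Postn, -2.51 ± 0.83) and the type VI collagen chains Col6a1 (-2.43 ± 0.75) and Col6a2 (-1.91 ± 0.61), with adjusted p from 0.18 to 0.19 (limma). Of the other members, named after their values were seen, the third type VI chain Col6a3 was at -1.15, while Fbln1 (1.91), a fibulin, and the small matrix proteoglycans Lum (1.75) and Dcn (0.89) had positive differences, none passing (limma, adjusted p from 0.26 to 0.36). Postn ranged from 34.4 to 279 RPKM (median 125) in the Mki67-high and from 129 to 2952 RPKM (median 1121) in the Mki67-low tumors. It was at 1969 RPKM or more in Cheek 1, Retro-orbital 1 and Retro-orbital 2 but at 129 to 274 RPKM in the other 3, so 3 tumors held the high values of this group. Col6a1 ranged from 9.94 to 169 RPKM (median 28.9) and from 98.4 to 577 RPKM (median 221). In Retro-orbital 4 it stood at 169 RPKM, within the 109 to 577 RPKM of the other retro-orbital tumors, as did Fbln2 and Col6a2, while Postn was below them at 81.9 RPKM. Lox, the lysyl oxidase that crosslinks collagen, was named after its values were seen as the only member free of overlap (21.6 to 49.2 against 56.8 to 685 RPKM; a difference of -1.76, limma, adjusted p = 0.17).

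Pericyte and smooth muscle genes had a median difference of 0.03 over 11 tested. Their slopes on log2 Mki67 over the 12 tumors had a median of -0.38, beside 0.12 for all genes tested. All 11 slopes were negative, and none passed. Retro-orbital 3, the tumor with the least Mki67, had the highest mean log2(RPKM + 1) of this list. It stood at 3.54, against 1.74 to 2.95 in the other tumors, so 1 tumor at the end of the Mki67 range weighs on these slopes. Slopes without it were not tested. By difference, the receptor Pdgfrb stood at -1.12 and the proteoglycan Cspg4 at -1.04, Tagln at -0.61 and Cnn1 at 0.49, and none passed. Endothelial genes had a median difference of 0.04 over 20, and a median slope of -0.12 with 6 of 20 positive. Retro-orbital 3 had the highest mean of this list too, at 3.16, with the Mki67-high Meninges 2 next at 3.14. The tight junction gene Cldn5 was at 4.42, 16.8 and 30.4 RPKM against 0.844, 2.90 and 14.3 RPKM, a difference of 1.67 that did not pass (limma, adjusted p = 0.19). Lyve1, counted in this list, was at -1.10 and reached 191 RPKM in Retro-orbital 2. That tumor was also the highest for Cd163, of the macrophage and microglia list, at 172 RPKM. Retro-orbital 4 was next for both, at 13.9 RPKM for Lyve1 and 61.4 RPKM for Cd163. The mean log2(RPKM + 1) in Retro-orbital 2 was 6.996 for the macrophage and microglia list and 1.948 for the endothelial list. Which cells held the Lyve1 RNA was not tested.

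Genes of astrocytes, oligodendrocytes and the Schwann cell lineage mostly had higher and not lower values in the Mki67-high tumors, though none passed. The Schwann cell lineage list is not limited to differentiated cells: it holds Fabp7, in the paper a marker of Schwann cell precursors. The paper reports strong FABP7 staining in tumors of this model, a measure of protein and not of the RNA given here. Of 13 genes of astrocytes and oligodendrocytes 12 had a positive difference, with a median of 1.40, and of 15 Schwann cell lineage genes 13 did, with a median of 0.84. Gfap, the intermediate filament of astrocytes and non-myelinating Schwann cells, was at 13.3, 73.3 and 260 RPKM in the Mki67-high and 0.309, 0.471 and 128 RPKM in the Mki67-low tumors, a difference of 4.55 ± 1.14 (limma, adjusted p = 0.14). In tumors of this model the paper saw little GFAP staining, which it placed in reactive astrocytes and not in tumor cells. Which cells held the Gfap RNA was not tested here. A single tumor made the groups overlap: Gfap was at 128 RPKM in Retro-orbital 3 and at 0.626 RPKM or less in the other 5 Mki67-low tumors. Without Retro-orbital 3 the difference was 5.63 (limma, adjusted p = 0.0098), and the glutamate transporter Slc1a3 (3.54, adjusted p = 0.036) and the glycolytic Aldoc (3.20, adjusted p = 0.045) passed as well. No other alternative called a gene of this list, and Retro-orbital 3 is the tumor that made the groups overlap, so the values without it are a description. With all 12 tumors Slc1a3 was at 2.97, Aldoc at 2.52 and the water channel Aqp4 at 2.60. Retro-orbital 3 had the lowest Mki67 of all tumors and shared its identifier's first part with Trigeminal N 1.

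Among the Schwann cell lineage genes, Mbp, a myelin protein, was at 6.40, 17.2 and 26.8 RPKM in the Mki67-high and 1.41, 4.67 and 8.87 RPKM in the Mki67-low tumors, a difference of 1.72 ± 0.43 (limma, adjusted p = 0.14). Only Trigeminal N 1, at 6.40 RPKM, lay within the range of the Mki67-low tumors. The calcium-binding S100b (1.90) and the fatty acid carrier Fabp7 (2.24) overlapped too, and Mag, a myelin adhesion protein (1.59; 1.46 to 7.06 against 0.187 to 1.26 RPKM), was named after its values were seen as the only member free of overlap. Fabp7 was at 0.064 RPKM in Retro-orbital 4, below the 0.339 to 7.86 RPKM of the other retro-orbital tumors. The differences of Fabp7, S100b, Slc1a3, Aqp4 and Aldoc turned negative with location as a covariate.

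Neuronal genes had a median of 0.62 over 11 tested and pointed both ways. The synaptic vesicle genes Syt1 (2.31 ± 0.54; 1.96 to 32.0 against 0.220 to 3.98 RPKM) and Syp (1.46 ± 0.40) had positive differences. The neurite genes Nefl (-1.82) and Stmn2 (-1.58) had negative ones, and none passed (limma, adjusted p from 0.14 to 0.44). Nefl was at 412 and 335 RPKM in Cheek 2 and Cheek 3, which share their identifier's first part. It was at 12.45 RPKM or less in every other tumor. Stmn2 was highest in Retro-orbital 1 (150 RPKM) and Retro-orbital 2 (74.3 RPKM). Without Retro-orbital 4 the adjusted p of Syp was 0.038 (limma). That tumor, at 1.12 RPKM, was the one that made the groups overlap for Syp, so this value is a description. Early neural crest genes, which mark the lineage that the Cre targets, had a median of -0.13 over 15, with Zic1 at 1.86, Msx1 at -1.54, Pax3 at -1.07 and Ets1 at -1.05, none passing. Cheek 2 and Cheek 3 were the highest for Msx1 (24.5 and 25.7 RPKM), Pax3 (43.1 and 38.5 RPKM) and Ets1 (50.2 and 55.8 RPKM).

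Antigen presentation and interferon response genes had the highest median of all lists, 1.43 over 22 genes, 21 of them positive, and none passed. The immunoproteasome subunit Psmb9 was at 23.9, 43.8 and 48.8 RPKM in the Mki67-high and 2.51, 10.0 and 29.6 RPKM in the Mki67-low tumors. The difference was 2.05 ± 0.48 (limma, adjusted p = 0.14), and without Retro-orbital 3 it was 2.39 (limma, adjusted p = 0.028). Retro-orbital 3, at 29.6 RPKM, is the tumor that made the groups overlap for Psmb9. No other alternative called a gene of this list, so the values without it are a description. The peptide transporter Tap2 (1.34; 37.7 to 55.3 against 9.18 to 36.6 RPKM), named after its values were seen, was free of overlap. Of the class II genes, H2-Aa (2.63 ± 1.15) and Cd74 (2.57 ± 1.16) spread more widely, as did the interferon-induced Isg15 (2.004 ± 0.643). The class II gene H2-Eb1, named after its values were seen, had the only negative difference of the list (-0.23 ± 1.04). H2-Aa was at 98.2 to 931 RPKM in the Mki67-high tumors, and in the Mki67-low tumors at 2.55 and 3.90 RPKM in Cheek 2 and Cheek 3, which share their identifier's first part, but at 447 RPKM in Retro-orbital 3.

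Leukocyte markers were checked beside these genes. The 16 lymphocyte markers were summed at 11.4 to 54.3 RPKM (median 18.9) in the Mki67-high and 2.78 to 18.3 RPKM (median 12.1) in the Mki67-low tumors, and 7 of them were tested, with a median of 0.75 and Cd4 (1.15) the largest. The 20 macrophage and microglia markers were summed at 1156 to 4417 RPKM (median 2550) and 1506 to 9090 RPKM (median 2284), with a median of 0.22. Among them Aif1 (0.97) had a positive and Cd163 (-1.73) and Cd14 (-1.05) a negative difference, and no leukocyte marker passed. No marker of either list was at 0 in all tumors. Their part in the antigen presentation values and in Icosl was not tested.

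Skeletal muscle genes, mostly of the contractile apparatus, had the lowest median, -0.87 over 16 tested, with 11 negative and none passing. The fast fibre gene Mylpf was at 1.01 to 1.40 RPKM in 5 Mki67-high tumors and at 43.0 RPKM in Retro-orbital 4, and ranged from 0.765 to 110 RPKM in the Mki67-low tumors (a difference of -1.95). Tnnc2 (-2.02) and the oxygen carrier Mb (-2.03) had the same tumor apart at 25.02 and 40.3 RPKM. With location as a covariate the differences of Mylpf (2.39), Tnnc2 (1.70) and Mb (2.22) turned positive. Myh8, the perinatal myosin, had the opposite sign (2.73) and reached 462 RPKM in Vestibular N 1, and the adult fast myosins Myh4 (1.53), Myh2 (1.26) and Myh1 (1.05), named after their values were seen, had positive differences too. The 20 genes summed to 18.4 to 705 RPKM (median 418) in the Mki67-high and 32.9 to 772 RPKM (median 210) in the Mki67-low tumors, the order opposite to that of the median difference.

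The remaining tissue lists passed no gene. Adipocyte genes had a median of -0.44 over 5 tested (Fabp4 -1.28), and cartilage and bone genes of 0.00 over 10, with the osteoblast factor Runx2 at -1.06 and the cartilage matrix gene Matn3 at 2.92. Epithelial genes had a median of 0.44 over 12 and spread from Krt18 (-2.63) and Krt14 (-2.38) to Epcam (1.58) and Cdh1 (2.14). Retina and lens genes had a median of 0.22 over 3, and of 6 red blood cell genes 1 was tested (-0.07) and 4 were at 0 in every tumor. Hypoxia and glycolysis genes had a median of -0.49 over 12, with 10 negative, among them Bnip3 (-0.90), Pgk1 (-0.83), Vegfa (-0.73) and Egln3 (-0.67).

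**Figure D3:**
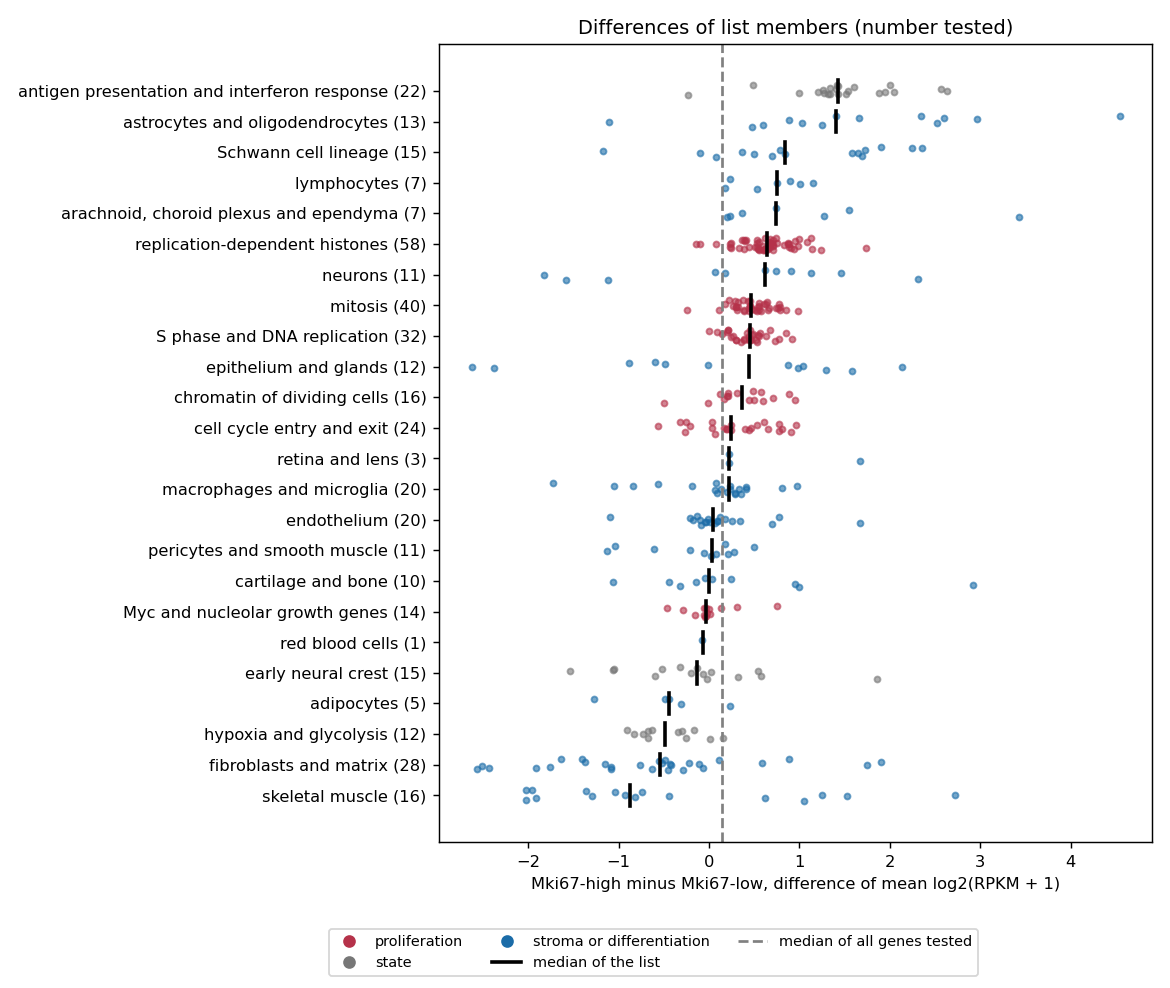
Each point is a gene, placed by the difference of mean log2(RPKM + 1), Mki67-high minus Mki67-low, in rows by list with the number tested, red for proliferation, grey for state and blue for stroma or differentiation; black bars are list medians and the dashed line is the median of all genes tested, 0.14. The mitosis and S phase lists lie almost wholly right of zero and the Myc list around it, with a median of -0.03, while medians of stromal and differentiation lists run from -0.87 for skeletal muscle to 1.40 for astrocytes and oligodendrocytes.

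**Figure D4:**
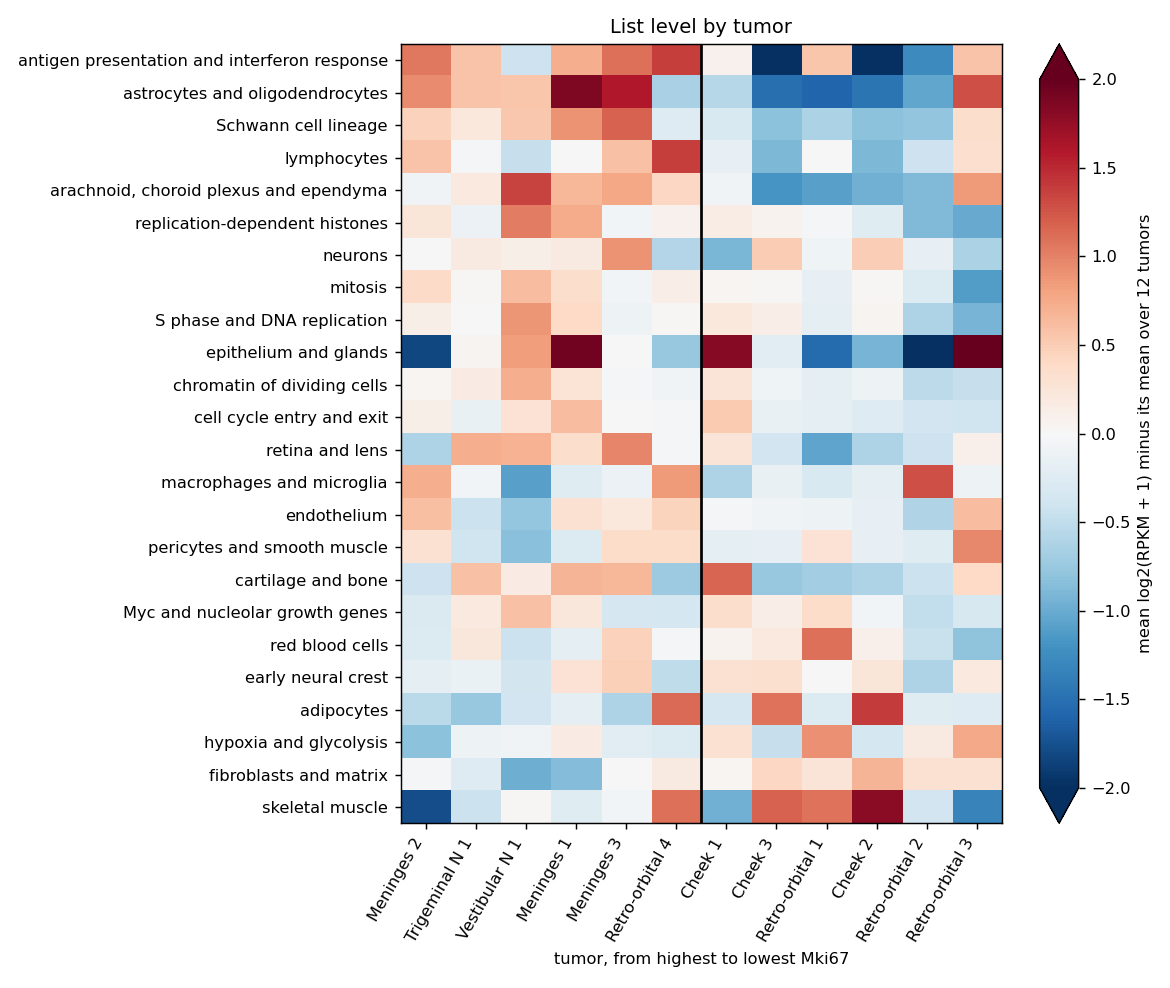
Each cell is the mean log2(RPKM + 1) of a list in a tumor minus that list's mean over the 12 tumors, red above and blue below, in order of falling Mki67 with a black line between the groups. Retro-orbital 3, rightmost, shares the red of 5 Mki67-high tumors (all but Retro-orbital 4) for astrocytes and oligodendrocytes while being the lowest for mitosis, and Retro-orbital 4, left of the line, has the muscle and adipocyte levels of some Mki67-low tumors.

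The same question was put without a split, as a slope on log2 Mki67 over the 12 tumors. No gene passed (limma, lowest adjusted p = 0.058, 2084 genes at an unadjusted p under 0.05). Of the 20 named genes with the smallest p, 11 were members of a proliferation list, and 5 had a negative slope. The proliferation lists held 32, 40, 24, 16, 14 and 58 of the 15042 genes tested. Genes of the cell cycle share their control with Mki67, so this count only describes the ranking. The mitotic Ube2c (1.07) and Aurkb (0.99) and the DNA methylation factor Uhrf1 (1.26) were among those with positive slopes, each with an adjusted p of 0.058, and among the 11 genes of the split Anxa1 (-2.63, adjusted p = 0.14) and Colec12 (-1.29, adjusted p = 0.29) had slopes of the same sign as their differences.

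The number of genes past the threshold moved with single tumors. Without Retro-orbital 3 it was 217, without Cheek 1 it was 104 and without Retro-orbital 4 it was 35, each of which held the 11. Without any 1 of Retro-orbital 2, Cheek 2, Cheek 3, Meninges 1, Meninges 2 or Meninges 3 it was 1, Colec12, and it was 6, 12 and 4 without Retro-orbital 1, Vestibular N 1 and Trigeminal N 1. Colec12 was the only gene to pass with any 1 tumor left out.

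**Figure D5:**
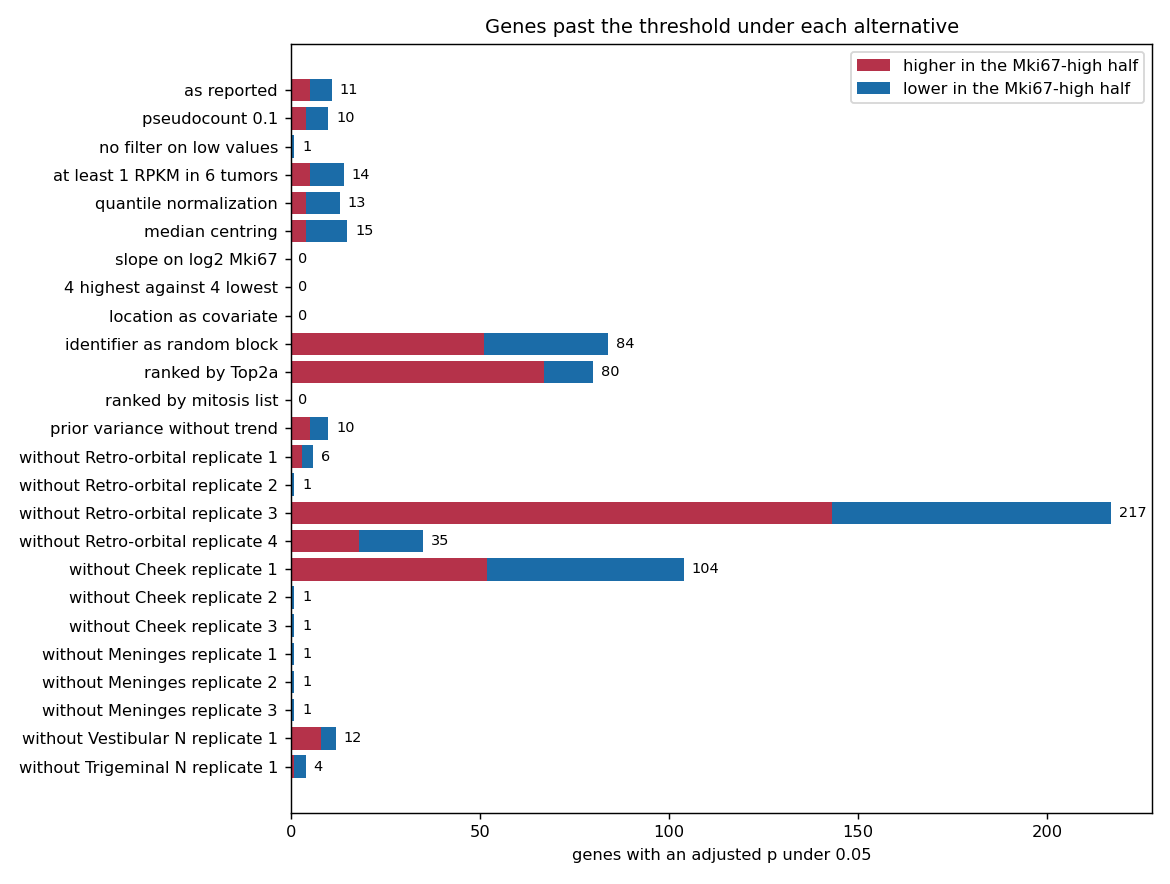
Number of genes with an adjusted p under 0.05 as reported and under each alternative, split into genes higher (red) and lower (blue) in the Mki67-high tumors. The count was 11 as reported and ranged from 0 with a slope, with 4 tumors a group, with location as a covariate or with the tumors ranked by the mitosis list to 217 without Retro-orbital 3.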

How the data were processed

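RNA of 12 tumors was sequenced by the authors from ribosome-depleted, stranded libraries. They aligned reads to mm10 with STAR, counted fragments per gene with HTSeq and deposited 1 RPKM value per gene and tumor, 24060 rows, 27 of which have a spreadsheet date where the gene symbol should be and were not named. Which gene lengths they used is not given in the sources used here. The values' steps in genes with a single exon gave back the fragments per tumor. RPKM keeps no counts, so no count model was used.

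Tumors were ranked by Mki67 and the 6 highest compared with the 6 lowest on log2(RPKM + 1) with limma 3.58.1 in R 4.3.3 (trended, robust prior variance), over genes at 1 RPKM or more in 3 tumors, with Benjamini-Hochberg adjustment. A fold on this scale understates the change of low genes. The step was tested on simulated data. The Mki67 split, the gene lists and the lists' members were chosen with earlier results of these data known. Named were genes past the threshold whose groups do not overlap, up to 12 a direction by size, up to 4 members a list by size, Smarcb1 and Ezh2; predicted and clone-named genes were not named, and 1 list member is not reported here. Coordinates are RefSeq GRCm38.p6.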

Additional observations from a re-analysis of the deposited data

Results flagged for a closer look

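In a group of 6 tumors a value was singled out when its gap to the nearest other value, as a share of the group's whole range, was above Dixon's critical value for 6 values. Of 206 groups screened (each named gene in the Mki67-high and in the Mki67-low tumors), 47 were past that limit, where chance gives about 1 in 20 for normally distributed values. RPKM are skewed to high values, so this rate is only a guide. The share is given for each gene, with the RPKM of the tumor and of the one nearest to it.

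Among the Mki67-high tumors, Meninges 1 stood apart for E2f8 (0.660; 11.5 against 7.36 RPKM), Mycl (0.775; 10.4 against 2.57 RPKM), Matn3 (0.754; 541 against 140 RPKM) and Krt14 (0.993; 162 against 1.27 RPKM). Retro-orbital 4 stood apart for Lyve1 (0.924; 13.9 against 1.34 RPKM), Cd163 (0.980; 61.4 against 1.93 RPKM), Syt1 (0.636; 31.9 against 12.9 RPKM), Mb (0.854; 40.3 against 5.96 RPKM), Tnnc2 (0.982; 25 against 0.865 RPKM), Mylpf (0.991; 43 against 1.4 RPKM) and Fabp4 (0.983; 17.5 against 1.32 RPKM). Vestibular N 1 stood apart for Lig1 (0.794; 77.2 against 31 RPKM), Ndc80 (0.720; 17.4 against 14.2 RPKM), Lmnb1 (0.797; 56.7 against 29.5 RPKM), Dnmt1 (0.677; 67.2 against 48.6 RPKM), Msx1 (0.867; 5.83 against 1 RPKM), Myh8 (0.788; 462 against 98.2 RPKM), Ttr (0.972; 96.1 against 2.74 RPKM), Pgk1 (0.633; 87 against 43 RPKM), Egln3 (0.814; 8.13 against 2.41 RPKM) and Myh4 (0.634; 27.3 against 10.2 RPKM).

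Among the Mki67-low tumors, Cheek 1 stood apart for Cdkn1c (0.773; 32.5 against 8.51 RPKM), E2f8 (0.720; 6.91 against 3.45 RPKM) and Matn3 (0.861; 413 against 58.2 RPKM). Cheek 2 stood apart for Myh1 (0.692; 77.4 against 26.8 RPKM). Cheek 3 stood apart for Krt14 (0.778; 270 against 60.1 RPKM). Retro-orbital 1 stood apart for Tfb1m (0.690; 7.83 against 4.97 RPKM), Lox (0.791; 685 against 188 RPKM), Myh8 (0.750; 8.36 against 2.37 RPKM) and Vegfa (0.947; 218 against 28.4 RPKM). Retro-orbital 2 stood apart for Lyve1 (0.988; 190 against 2.75 RPKM), Cd163 (0.909; 172 against 16.1 RPKM) and Col6a3 (0.874; 150 against 26.6 RPKM). Retro-orbital 3 stood apart for Ptgds (0.663; 5.94 against 2.06 RPKM), Casc5 (0.676; 3.34 against 7.64 RPKM), Mycl (0.765; 6.09 against 1.5 RPKM), Cnn1 (0.686; 6 against 1.99 RPKM), Fabp7 (0.818; 7.86 against 1.7 RPKM), Mag (0.835; 1.25 against 0.363 RPKM), Gfap (0.998; 128 against 0.626 RPKM), Slc1a3 (0.839; 29.3 against 5.23 RPKM), Aqp4 (0.874; 121 against 15.4 RPKM), Aldoc (0.797; 50.8 against 10.5 RPKM), Cdh1 (0.776; 84.9 against 19.5 RPKM), Egln3 (0.916; 31 against 4.21 RPKM), Ezh2 (0.654; 5.22 against 12.6 RPKM) and Fbln1 (0.885; 53.4 against 8.27 RPKM).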

How the results depend on the processing

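No paired analysis was possible because the labels carry no replicate numbers (those used here follow accession order and only name the tumors), other than a fit with the identifier's first part as a random block, where 2 of the 3 pairs straddle the split. The count of 11 genes was 10 with a pseudocount of 0.1 or without a trended prior, 14 with the filter at 6 tumors, 13 after quantile normalization and 15 after median centring, and moved further under the other alternatives: 1 with no filter on low values (more genes tested), 0 with a slope on log2 Mki67, 0 with the 4 highest against the 4 lowest (fewer tumors; 1835 genes at an unadjusted p under 0.05), 0 with location as a covariate, 0 with tumors ranked by the mitosis list (1171 at an unadjusted p under 0.05), 80 ranked by Top2a and 84 with the identifier's first part as a random block (an estimated correlation of 0.654), which held all 11. None of the 80 was among the 11. Where no value shows the cause it was not tested. Leaving out 1 tumor gave 1 to 217.

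Among the other genes named, 31 differences turned. With location as a covariate they were -0.12 for Mycl, 0.54 for Lyve1, 1.93 for Cd163, -1.58 for Fabp7, -0.83 for S100b, 2.47 for Pax3, 0.05 for Ets1, -0.32 for Slc1a3, -0.52 for Aqp4, -0.07 for Aldoc, 0.06 for Nefl, -0.08 for Syp, -0.31 for Myh8, 2.22 for Mb, 1.70 for Tnnc2, 2.39 for Mylpf, 2.05 for Fabp4 and -0.52 for Epcam. Ranked by the mitosis list they were -0.43 for Fabp7, -0.30 for S100b, -0.02 for Zic1, 0.47 for Msx1, 0.23 for Pax3, -0.05 for Syp, -0.38 for Myh8, 0.00 for Mb, 0.10 for Fabp4, 0.74 for Krt14, -0.24 for Dcn and -0.24 for Epcam, and the slope was -0.09 for Cnn1.

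The groups are ranks of a measured value and nearly coincide with location, which limits every comparison above. With 6 tumors a group, and 3 pairs with a shared identifier start, the p-values cover only the spread between these tumors. At these depths 3 fragments of a 2 kb transcript are worth 0.0263 to 0.114 RPKM, so levels near that are not told from 0, an interval for counting error only.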
